A study of Mus musculus with 4 samples.

Results

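The 9 heat shock chaperone genes described here are Hspa1a, Hspa1b, Hspb1, Dnajb1, Hsph1, Hsp90aa1, Hsp90ab1, Hspa8 and Hspe1, taken by symbol from the feature lists of both gene matrices, which name 32285 genes. All 9 were found in both. The study applied CITE-seq, a single-cell method in which RNA and tagged antibodies are counted together, to hearts of C57BL6J mice in 2 libraries. The anti-CD40 library pooled hearts of 4 mice given an agonist antibody against the receptor CD40, and the isotype library pooled hearts of 4 mice given a rat IgG antibody. Age, dose and time after treatment are not given in the sources used here, and no other allele or agent is named. Atria were removed and the rest of the heart was digested with enzymes before sorting, per the labels' protocols. The sample labels name a sort for CD45+DAPI- cells, whereas the series description names DRAQ5+DAPI- cells. Each group is 1 library of pooled animals, so no test between treatments was possible, and every interval below is a 95% interval that covers counting error only.

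Heat shock chaperones bind unfolded or newly made proteins and help them fold, refold or be degraded. When proteins unfold, the transcription factor HSF1 is released from chaperones, binds repeats of a short unit in target promoters, and drives the inducible members, while other members are made at high levels at all times. In tissue work these inducible genes, like the immediate early genes such as Fos and Jun, are also known to be switched on while cells are taken out of the tissue by digestion. HSP70 proteins (Hspa1a, Hspa1b and the constitutive Hspa8) are the central folding machines, J-domain proteins such as Dnajb1 hand them their clients, Hsph1 helps them release nucleotide, and HSP90 proteins (the more inducible Hsp90aa1 and the constitutive Hsp90ab1) act later on signalling proteins. Hspb1 is a small heat shock protein that holds unfolded proteins, and Hspe1 is the lid of the mitochondrial chaperonin. Hspa1a, Hspa1b, Hspb1, Dnajb1 and Hsph1 are called the 5 inducible members below.

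Promoter sequences are shown because Hspa1a and Hspa1b, whose levels the results turn on, are near copies of each other, and because Hspb1 and Hspe1 carry the same kind of element but differed in the direction of their values. The genes lie at chr17:34969359-34972156 (Hspa1a) and chr17:34956429-34959238 (Hspa1b), 10.1 kb apart, both on the minus strand, and the others at Hspb1 (chr5:135887919-135889563), Dnajb1 (chr8:83608175-83612653), Hsph1 (chr5:149616843-149636498), Hsp90aa1 (chr12:110691036-110696395), Hsp90ab1 (chr17:45567778-45573261), Hspa8 (chr9:40801276-40805202) and Hspe1 (chr1:55088148-55091317). Below are the 250 bases before the start site from RefSeq (GRCm38.p6), 5′ to 3′, with matches to GAANNTTC or TTCNNGAA, a pair of heat shock units, in capitals. Each pattern, with N as any base, reads the same on both strands, though not every matched sequence does. The windows are chr17:34972157-34972406 (Hspa1a, minus strand), chr17:34959239-34959488 (Hspa1b, minus strand), chr5:135887669-135887918 (Hspb1, plus strand) and chr1:55087898-55088147 (Hspe1, plus strand).
Hspa1a: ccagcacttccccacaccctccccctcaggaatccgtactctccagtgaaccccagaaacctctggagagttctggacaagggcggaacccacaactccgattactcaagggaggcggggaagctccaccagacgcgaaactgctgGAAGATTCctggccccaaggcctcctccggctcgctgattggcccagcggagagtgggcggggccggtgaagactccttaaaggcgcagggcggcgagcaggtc
Hspa1b: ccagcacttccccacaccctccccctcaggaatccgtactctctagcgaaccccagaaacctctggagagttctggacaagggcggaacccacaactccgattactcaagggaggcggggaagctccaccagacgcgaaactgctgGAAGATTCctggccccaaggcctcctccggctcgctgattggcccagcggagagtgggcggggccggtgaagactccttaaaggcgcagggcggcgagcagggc
Hspb1: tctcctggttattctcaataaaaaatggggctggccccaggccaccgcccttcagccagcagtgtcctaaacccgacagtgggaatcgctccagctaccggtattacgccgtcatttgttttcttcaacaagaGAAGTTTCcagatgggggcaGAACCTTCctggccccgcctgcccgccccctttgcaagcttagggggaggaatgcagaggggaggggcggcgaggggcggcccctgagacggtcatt
Hspe1: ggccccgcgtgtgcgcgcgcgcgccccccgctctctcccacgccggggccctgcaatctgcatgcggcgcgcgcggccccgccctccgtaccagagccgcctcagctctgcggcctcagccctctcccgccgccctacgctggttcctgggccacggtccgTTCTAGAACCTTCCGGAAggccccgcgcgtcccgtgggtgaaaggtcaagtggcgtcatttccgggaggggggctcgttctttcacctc
The Hspa1a and Hspa1b windows were identical at 247 of 250 bases (98.8%). Counting from 1 at the 5′ end of the window, with the Hspa1a base first and the Hspa1b base last, they differed by C44T, T47C and T249G. Both held GAAGATTC, starting 104 bases before the start site. Hspb1 held GAAGTTTC and GAACCTTC, and Hspe1 held a run of overlapping pairs, TTCTAGAA, GAACCTTC and TTCCGGAA, that also matches the 3-unit motifs GAANNTTCNNGAA and TTCNNGAANNTTC. Of the 9 genes, 6 had an entry, and 5 of these held a pair, all but Dnajb1, while Hspe1 alone of them held 3 units. Hsp90aa1, Hsp90ab1 and Hspa8 are named only. Of all 32851 windows of the same length, 12.8% held a pair and 0.466% held 3 units, and the 3-unit matches include the pairs within them. These are matches of letters, not measured binding.

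Cells were kept from 200 detected genes upward and below a mitochondrial share of 10%, which left 4278 of 7087 barcodes in the anti-CD40 library and 2558 of 4908 in the isotype library. They held 47485251 and 22687435 gene UMIs, with medians of 8284.5 and 5446 UMIs per cell. A cell was gated to a class when its UMIs passed 1 of 8 marker lists and no other. This gave 2539 anti-CD40 and 883 isotype mononuclear phagocytes, 309 and 153 neutrophils, 155 and 130 NK cells, 134 and 33 T cells, 15 and 421 B cells, 23 and 43 dendritic cells, 73 and 46 endothelial cells, and 52 and 34 fibroblasts. Cells passing several lists (466 and 406, mixed) or none (512 and 409) were left out of the classes. Endothelial cells and fibroblasts passed despite the CD45 gate named in the labels. Every marker of the phagocyte list was detected in gated phagocytes of both libraries, and the list summed to 17465 CPM (UMIs of a gene per 1000000 UMIs of the class) in the anti-CD40 and 16084 CPM in the isotype library. Of all barcodes, 13 sequences occurred in both libraries, 6 of them among kept cells of both. Levels below are in CPM, and a gene counts as over 1.5-fold apart when its log2 ratio, with a prior of 10 CPM added to both libraries, passed that fold and it had at least 30 UMIs in the library where it was higher.

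In gated phagocytes the inducible members were lower and the constitutive ones higher in the anti-CD40 library. Hspa1a, Hspa1b and Hspb1 were over 1.5-fold lower in the anti-CD40 library, Dnajb1, Hsph1 and Hsp90aa1 were lower without passing that rule, and Hsp90ab1, Hspa8 and Hspe1 were higher without passing it. Of the 9 members measured, 3 were over 1.5-fold lower, where 10.1% of 11030 genes were, and 0 were over 1.5-fold higher, where 5.22% were. The members' median log2 ratio was -0.54, against -0.12 over all genes measured. By role, the median was -1.42 over the 5 inducible members and 0.33 over the other 4.

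Hspa1a, the stress-inducible HSP70, stood at 451 CPM (95% interval 443 to 458) in anti-CD40 phagocytes and 1220 CPM (1196 to 1245) in isotype phagocytes, which is 2.71-fold lower (2.64 to 2.78). Hspa1b, which encodes nearly the same protein, stood at 407 CPM in anti-CD40 and 1207 CPM in isotype phagocytes, 2.97-fold lower (2.89 to 3.05). Together they took 13.8% of the members' UMIs in anti-CD40 phagocytes and 34.9% in isotype phagocytes. Reads from regions that the 2 copies share could be split or lost by the counting, so their separate levels are uncertain, and the sum is the firmer value. It was 857 CPM in the anti-CD40 and 2428 CPM in the isotype library, 2.83-fold lower (2.78 to 2.89).

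Hspb1 had the widest ratio of the members. It stood at 8.24 CPM (7.25 to 9.32) in anti-CD40 and 57.5 CPM (52.3 to 63.2) in isotype phagocytes, from 251 and 441 UMIs, 6.98-fold lower (5.97 to 8.19). Dnajb1, the J-domain partner of HSP70, had 68.8 CPM in anti-CD40 and 108 CPM in isotype phagocytes (1.57-fold lower, 1.45 to 1.70), and its log2 ratio of -0.58 fell just short of the fold rule because of the prior. Hsph1, the HSP110 exchange factor, had 42.8 CPM in anti-CD40 and 60.7 CPM in isotype phagocytes (1.42-fold lower, 1.27 to 1.58). The 5 inducible members summed to 977 CPM (966 to 989) in anti-CD40 and 2654 CPM (2618 to 2691) in isotype phagocytes, 2.72-fold lower (2.67 to 2.76). Phagocytes also differed in depth, with medians of 9940 UMIs in anti-CD40 and 6846 UMIs in isotype cells, and in traces of other cells. All 10 B cell markers were detected in them, with 32.3 CPM in anti-CD40 and 442 CPM in isotype phagocytes, as were all 8 cardiomyocyte markers, with 73.1 CPM in anti-CD40 and 116 CPM in isotype phagocytes. The 10 neutrophil markers, also all detected, went the other way, with 397 CPM in anti-CD40 and 184 CPM in isotype phagocytes. With phagocytes limited to cells with under 2 markers of any other list, the log2 ratio of the inducible members was -1.39, against -1.43. That limit kept 779 of 2539 anti-CD40 and 460 of 883 isotype phagocytes, so it removed unequal parts of the libraries. The part of depth and of RNA from other cells in the ratio was not tested.

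Hsp90aa1, the more inducible HSP90, had 498 CPM in anti-CD40 and 731 CPM in isotype phagocytes, 1.47-fold lower (1.42 to 1.51). Its constitutive partner Hsp90ab1 had 1933 CPM in anti-CD40 and 1620 CPM in isotype phagocytes, a ratio of 1.19 (1.17 to 1.22). The 2 HSP90 genes thus lay on opposite sides of 1. Hspa8, the constitutive HSP70, had 2540 CPM in anti-CD40 and 1747 CPM in isotype phagocytes, a ratio of 1.45 (1.43 to 1.48). Hspe1, which caps the mitochondrial chaperonin, had 286 CPM in anti-CD40 and 212 CPM in isotype phagocytes, a ratio of 1.35 (1.28 to 1.42). All 9 members summed to 6235 CPM in anti-CD40 and 6964 CPM in isotype phagocytes, 1.12-fold lower. Scaling by the trimmed mean of M values would add 0.31 to every log2 ratio in phagocytes, and no member changed side under it, but Hspa8 and Hspe1 then passed 1.5-fold higher, which makes 3 members lower and 2 higher, where 5.50% and 11.1% of all genes were.

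**Figure D1:**
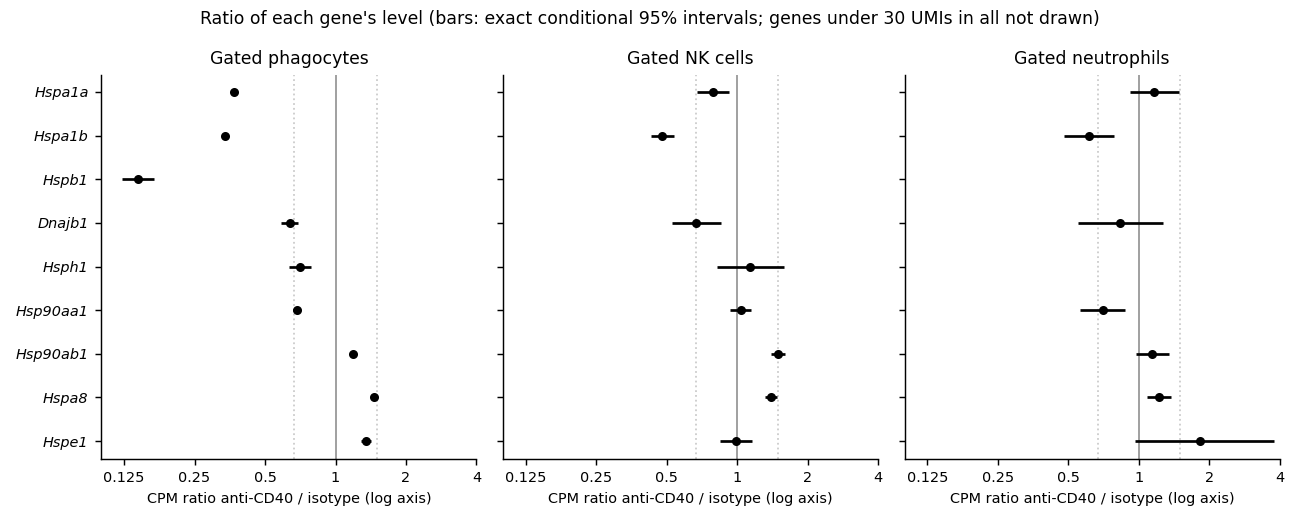
Ratio of each gene's CPM in anti-CD40 over isotype cells (log axis) in gated phagocytes, NK cells and neutrophils. Points are ratios, bars exact 95% counting intervals, the solid line marks 1 and the dotted lines mark 1.5-fold either way; in phagocytes Hspb1 lies farthest left at 0.143 and Hspa8 farthest right at 1.45.

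Both libraries held cells with UMIs of Xist, which is made from the inactive X of female cells, and cells with UMIs of the Y-linked genes Ddx3y, Eif2s3y, Uty and Kdm5d. The labels used here give no sex. Of gated phagocytes, 927 anti-CD40 and 295 isotype cells had Xist and no Y-linked UMI, and 730 and 242 had a Y-linked and no Xist UMI. A further 281 and 115 had both, and 601 and 231 had neither. This split was chosen after the data were seen.

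Within the isotype library the inducible members also differed between these cells. They summed to 3774 CPM (3697 to 3853) in isotype phagocytes with Xist only and 1869 CPM (1811 to 1929) in those with Y-linked UMIs only, a ratio of 2.02 (1.94 to 2.10). In the anti-CD40 library the same groups had 957 CPM and 870 CPM, a ratio of 1.10 (1.07 to 1.13). The anti-CD40 cells were lower than the isotype cells in both groups, at a ratio of 0.254 (0.247 to 0.261) among Xist cells and 0.466 (0.448 to 0.484) among Y-linked cells. The immediate early genes had 6565 CPM in Xist and 6180 CPM in Y-linked anti-CD40 cells, a ratio of 1.06 (1.05 to 1.07), and 15983 CPM in Xist and 14225 CPM in Y-linked isotype cells, a ratio of 1.12 (1.11 to 1.14). Malat1, a nuclear RNA as Xist is, had 25361 CPM in Xist and 22324 CPM in Y-linked anti-CD40 phagocytes, and 41077 CPM in Xist and 40425 CPM in Y-linked isotype phagocytes. Sex and single animals cannot be told apart in this split.

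The split changed the side of some members. Hsph1 had 30.9 CPM in anti-CD40 and 85.2 CPM in isotype Xist cells, a ratio of 0.363 (0.305 to 0.435). Among Y-linked cells it had 51.3 CPM in anti-CD40 and 38.2 CPM in isotype cells, a ratio of 1.34 (1.06 to 1.72). Dnajb1 was lower among Xist cells, at 71.1 CPM in anti-CD40 and 135 CPM in isotype cells, and nearer among Y-linked cells, at 62.3 CPM in anti-CD40 and 68.4 CPM in isotype cells, where the interval of the ratio took in 1 (0.758 to 1.10). Hspb1 was lower in anti-CD40 cells of both groups, at 10.6 CPM in anti-CD40 and 106 CPM in isotype Xist cells and at 6.20 CPM in anti-CD40 and 35.4 CPM in isotype Y-linked cells. Hspa8 had a ratio of 1.11 (1.08 to 1.14) among Xist cells and 1.85 (1.78 to 1.92) among Y-linked cells, and Hsp90ab1 had 0.946 (0.916 to 0.977) and 1.51 (1.45 to 1.57). Among Xist cells 6 of the 9 members were over 1.5-fold lower and 0 higher, where 11.6% and 7.28% of 8954 genes were. Among Y-linked cells 3 were lower and 3 (Hsp90ab1, Hspa8 and Hspe1) higher, where 14.1% and 7.40% of 8595 genes were. B cells of the isotype library also held more in Xist cells, with 3081 CPM of the inducible members in 176 Xist cells and 1250 CPM in 100 Y-linked cells (ratio 2.46, 2.26 to 2.69), and NK cells a smaller one, with 1846 CPM in 30 Xist cells and 1442 CPM in 51 Y-linked cells (1.28, 1.10 to 1.48). Anti-CD40 NK cells differed as well, with 1143 CPM in 63 Xist cells and 723 CPM in 50 Y-linked cells (1.58, 1.39 to 1.80). Neutrophils went the other way on few UMIs, with 217 CPM in 19 Xist and 617 CPM in 36 Y-linked isotype cells.

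**Figure D2:**
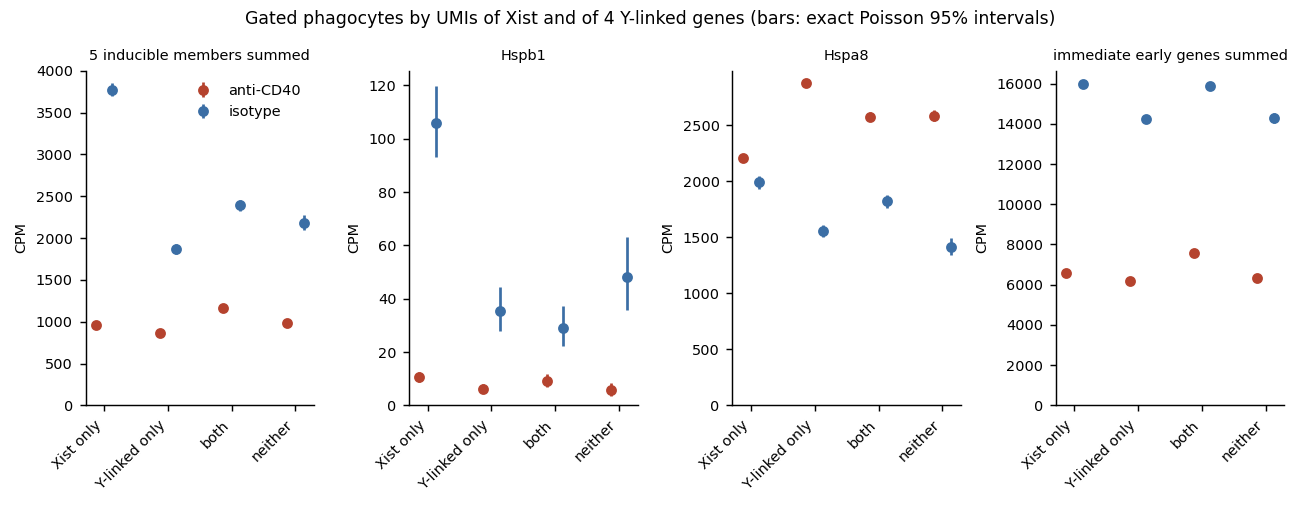
Levels in CPM in gated phagocytes split by UMIs of Xist and of 4 Y-linked genes, with anti-CD40 and isotype points and exact Poisson 95% bars. The inducible members of isotype cells stand at 3774 CPM with Xist only and 1869 CPM with Y-linked UMIs only, while the anti-CD40 points stay between 870 CPM and 1170 CPM and the immediate early genes differ mainly between the libraries.

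Over single cells the whole distribution of the inducible members was lower in the anti-CD40 library. Each phagocyte was thinned to 2000 UMIs, which left 2281 anti-CD40 and 736 isotype cells and removed 258 and 147 shallower ones. The inducible members averaged 2.21 UMIs in anti-CD40 and 5.90 UMIs in isotype cells, with medians of 1 and 3 UMIs and upper quartiles of 3 and 9 UMIs. None of their UMIs was seen in 37.2% of anti-CD40 and 22.0% of isotype cells, and 10 or more in 3.73% of anti-CD40 and 23.1% of isotype cells. The most loaded 10% of cells held 44.7% of these UMIs in the anti-CD40 and 39.2% in the isotype library. Hspa8 was higher in anti-CD40 cells, with a mean of 4.82 UMIs in anti-CD40 and 3.29 UMIs in isotype cells, and 2.63% and 8.15% of cells at 0.

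**Figure D3:**
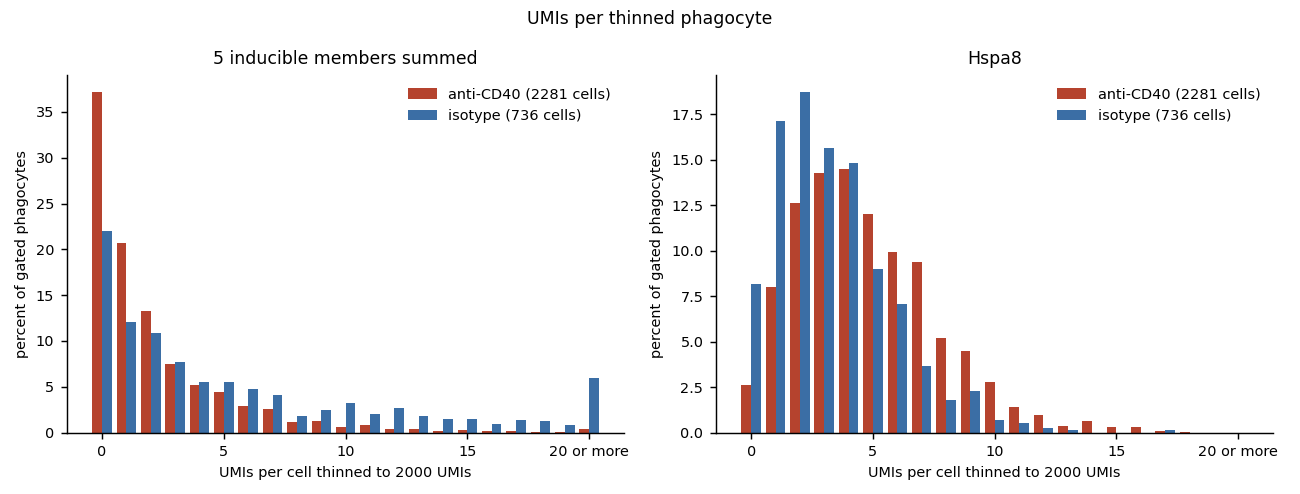
Percent of gated phagocytes, thinned to 2000 UMIs, by UMIs of the 5 inducible members together (left) and of Hspa8 (right), for anti-CD40 and isotype cells. The share at 0 inducible UMIs is 37.2% in anti-CD40 and 22.0% in isotype cells, the share with 10 or more is 3.73% and 23.1%, and the Hspa8 columns of anti-CD40 cells lie to the right of the isotype columns.

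Across these thinned cells Hspa1a and Hspa1b went together most, with a Pearson correlation of log counts of 0.54 over 2281 anti-CD40 and 0.66 over 736 isotype cells. The other 35 pairs of members had correlations of at most 0.22 in the anti-CD40 and 0.36 in the isotype library, the highest between Hspa1b and Hsp90aa1 in both. Hspb1 reached at most 0.05 with the others in the anti-CD40 library and 0.13 in the isotype library, but 98.9% of anti-CD40 and 93.6% of isotype thinned cells had none. At full depth, phagocytes with 5 or more Hspb1 UMIs had 1727 CPM of Hspa1a and Hspa1b in the anti-CD40 and 3586 CPM in the isotype library. Those with 1 or more had 1003 and 2507 CPM, and those without Hspb1 had 846 and 2414 CPM. These are descriptions over cells that share a library, and sparse counts keep correlations low. The genes most like the summed inducible members were Jun, Btg2, Fos, Klf6, Zfp36, Egr1, Junb and Ccl4 in the anti-CD40 library, from 0.42 for Jun to 0.29 for Ccl4 over 4825 genes compared. In the isotype library they were Jun, Klf6, Fos, Junb, Zfp36, Btg2 and Dnaja1, from 0.44 for Jun to 0.33 for Dnaja1 over 5161 genes.

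Immediate early genes, transcription factors and regulators switched on within minutes of a stimulus, were lower alongside. In phagocytes 21 of 22 were over 1.5-fold lower and 0 higher, where 10.1% and 5.22% of 11030 genes were. Their median log2 ratio was -1.16, against -0.12 over all genes measured. Jun had 902 CPM in anti-CD40 and 2412 CPM in isotype phagocytes (2.67-fold lower), and Fos 841 CPM in anti-CD40 and 1679 CPM in isotype phagocytes (2.00-fold lower). Jund had 643 CPM in anti-CD40 and 1583 CPM in isotype phagocytes, and Klf6 722 CPM in anti-CD40 and 1178 CPM in isotype phagocytes. Among cells with under 10 early gene UMIs after thinning, the inducible members averaged 0.877 UMIs in 1015 anti-CD40 and 1.32 UMIs in 112 isotype cells. With 10 to under 20, they averaged 2.20 UMIs in 731 anti-CD40 and 2.77 UMIs in 142 isotype cells, and with 20 to under 40, 4.22 UMIs in 448 anti-CD40 and 5.06 UMIs in 251 isotype cells. At 40 or more, they averaged 7.48 UMIs in 87 anti-CD40 and 11.0 UMIs in 231 isotype cells. The ratio was 0.664 to 0.834 within these groups of cells, nearer to 1 than the 0.368 of all phagocytes. The part of the early gene difference in the chaperone difference was not tested.

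**Figure D4:**
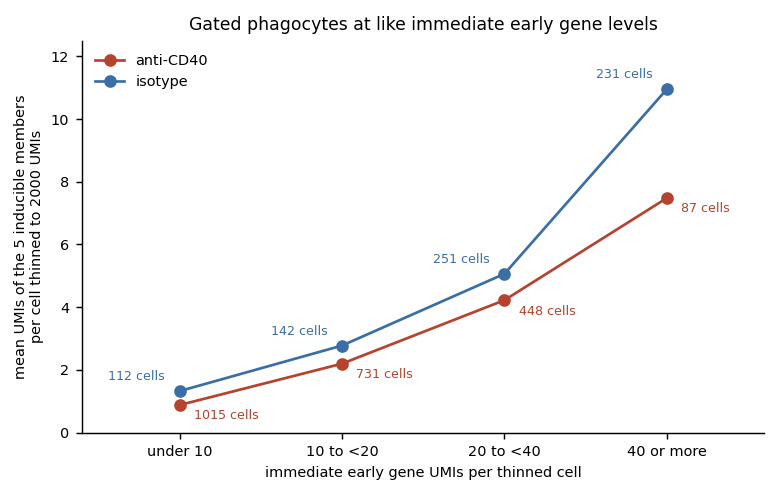
Mean UMIs of the 5 inducible members per phagocyte thinned to 2000 UMIs, by the cell's UMIs of 22 immediate early genes, with cell numbers beside the points and anti-CD40 and isotype lines. In both libraries the mean is higher where early genes are higher, and the anti-CD40 mean is below the isotype mean at each step, with ratios of 0.664 to 0.834.

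The lower inducible level was seen in each of the phagocyte groups set apart by marker UMIs, which were chosen after the data were seen. Phagocytes with Timd4, Lyve1 or Folr2, markers of resident macrophages, and no Ccr2 numbered 679 in the anti-CD40 and 419 in the isotype library, with 1042 and 2440 CPM of the inducible members (ratio 0.427, 0.414 to 0.440). Phagocytes with Ccr2, the receptor of monocyte-derived cells, and none of these 3 numbered 850 and 109, with 808 CPM in anti-CD40 and 2812 CPM in isotype cells (0.287, 0.276 to 0.299). Those with UMIs of the cell cycle genes Mki67 or Top2a numbered 797 and 78, with 913 CPM in anti-CD40 and 1854 CPM in isotype cells (0.492, 0.471 to 0.514). Hspb1 was highest in cells with the resident markers and no Ccr2, at 15.9 CPM in anti-CD40 and 95.4 CPM in isotype cells, which held 114 of 251 and 345 of 441 of its UMIs. It had 10.3 CPM in anti-CD40 and 29.6 CPM in isotype cells with both kinds of marker, 8.01 CPM and 29.5 CPM with neither, and 1.93 CPM and 8.81 CPM with Ccr2 alone.

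Hspb1 came from few phagocytes. It had a UMI in 112 anti-CD40 (4.41%) and 89 isotype phagocytes (10.1%), and the 30 isotype cells with 5 or more UMIs held 79.1% of its UMIs there, the 16 such anti-CD40 cells 39.4%. Those cells had 21.5 CPM of endothelial markers in the anti-CD40 and 15.9 CPM in the isotype library, no more than the 42.0 and 33.9 CPM of phagocytes without Hspb1, and they had 491 CPM of Lyve1 in the anti-CD40 and 590 CPM in the isotype library, against 119 and 407 CPM in phagocytes without Hspb1. Over all phagocytes with a UMI of Hspb1, endothelial markers had 63.9 CPM in the anti-CD40 and 113 CPM in the isotype library, and their part in the Hspb1 level was not tested. These cells were also deeper, with medians of 18352.5 UMIs in the anti-CD40 and 9484 UMIs in the isotype library. Phagocytes without Hspb1 had medians of 9598 and 6597 UMIs. Endothelial markers in all phagocytes stood at 0.201% of the endothelial level in the anti-CD40 and 0.185% in the isotype library, where Hspb1 stood at 1.63% and 8.09% of it. Phagocytes were gated by not passing the endothelial list, which keeps its markers low by selection. After thinning, Hspb1 was found in 1.14% of anti-CD40 and 6.39% of isotype phagocytes, and in 0 of 230 anti-CD40 and 0 of 109 isotype neutrophils, which allows up to 1.30% and 2.75% of cells with a UMI.

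Over cell types the members followed separate orders. In the isotype library the inducible HSP70 genes were higher in leukocytes other than neutrophils than in the remaining classes. Hspa1a in isotype cells was highest in phagocytes (1220 CPM), then dendritic cells (888 CPM), T cells (688 CPM) and B cells (655 CPM), NK cells (382 CPM), endothelial cells (272 CPM), neutrophils (210 CPM) and fibroblasts (71.6 CPM). The intervals of neighbours overlapped between T and B cells, NK and endothelial cells, and endothelial cells and neutrophils. In anti-CD40 cells the order was flatter, with phagocytes at 451 CPM, dendritic cells at 392 CPM, T cells at 335 CPM, NK cells at 301 CPM, B cells at 274 CPM, neutrophils at 244 CPM, endothelial cells at 185 CPM and fibroblasts at 142 CPM, and the intervals of all neighbours overlapped. Hspa1b ranged from 151 CPM in neutrophils to 461 CPM in dendritic cells in the anti-CD40 library, with B cells at 243 CPM beside fibroblasts at 283 CPM, and from 122 CPM in fibroblasts to 1325 CPM in dendritic cells in the isotype library.

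Hspb1 was highest in cells that are not leukocytes. It stood at 504 CPM in anti-CD40 and 711 CPM in isotype endothelial cells, and at 222 CPM in anti-CD40 and 242 CPM in isotype fibroblasts. In the other gated leukocytes it was rare, with at most 5 UMIs (NK cells) in the anti-CD40 library and 32 UMIs (16.1 CPM, B cells) in the isotype library. Hspa8 was highest in NK cells (2831 CPM) in the anti-CD40 library and in dendritic cells (2488 CPM) in the isotype library. It was lowest in fibroblasts (1022 CPM in anti-CD40, 1018 CPM in isotype) and neutrophils (1045 CPM in anti-CD40, 855 CPM in isotype), with intervals that overlapped in each library. Hsp90ab1 was lowest in neutrophils, at 507 CPM in anti-CD40 and 444 CPM in isotype cells, while the next lowest class, fibroblasts, had 1511 CPM in anti-CD40 and 1446 CPM in isotype cells.

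**Figure D5:**
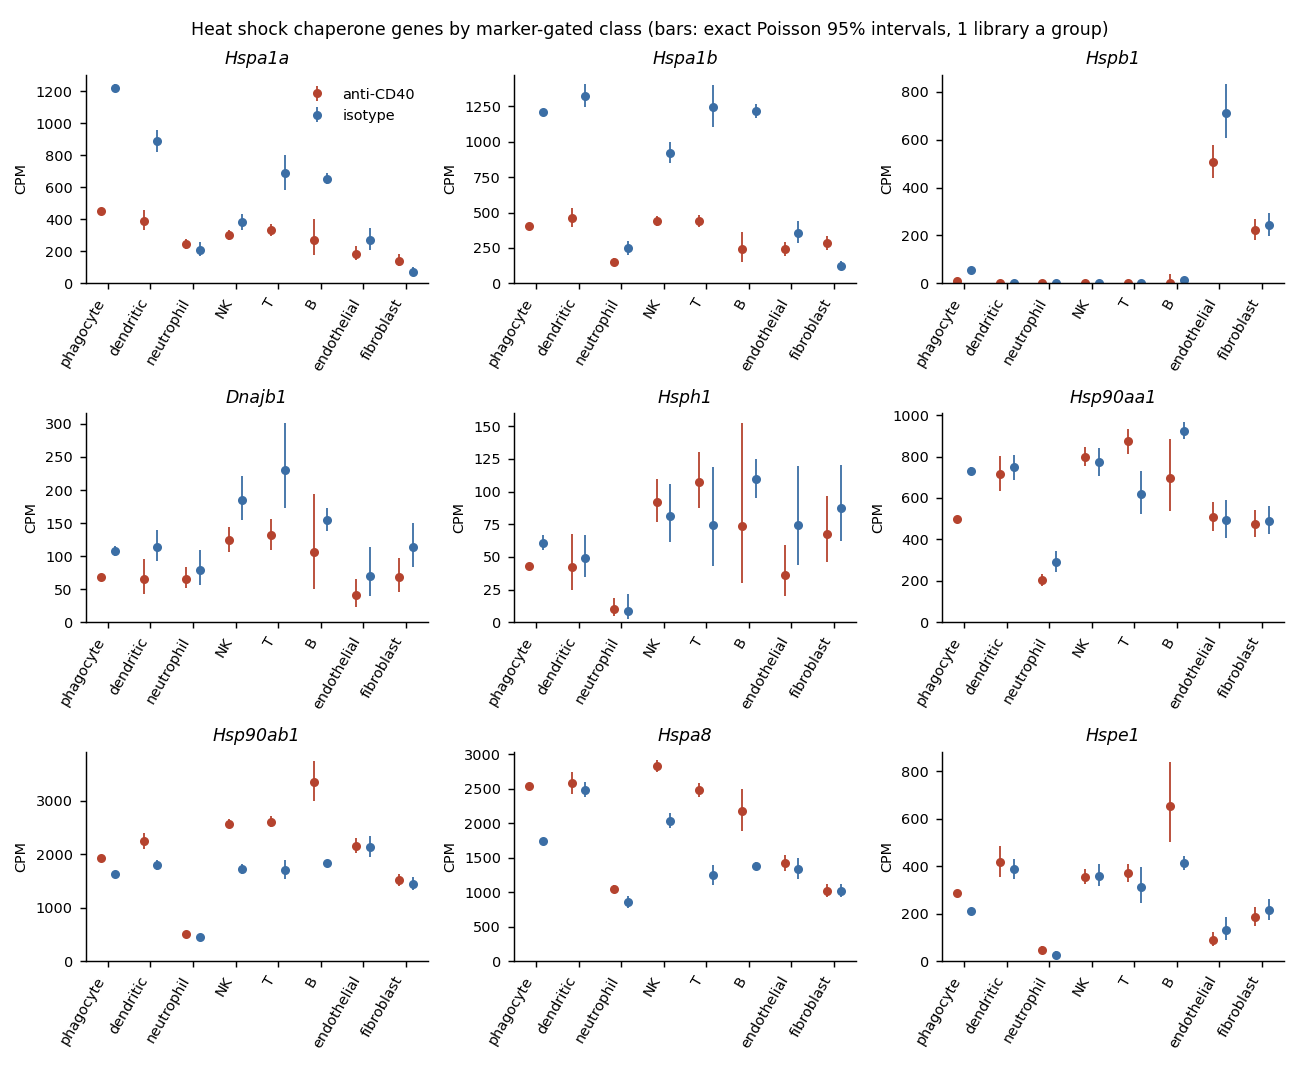
Level of each gene in CPM in 8 gated classes, with anti-CD40 points left of isotype points and exact Poisson 95% bars. Isotype points stand well above anti-CD40 points for Hspa1a and Hspa1b in phagocytes, dendritic, T and B cells, anti-CD40 points stand above for Hspa8 and Hsp90ab1 in phagocytes, NK, T and B cells, and Hspb1 is high in endothelial cells and fibroblasts.

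Between the libraries, the inducible sum was lower and Hsp90ab1 and Hspa8 were higher in anti-CD40 NK cells, as in phagocytes. Of 8 members measured there, 1 was over 1.5-fold lower (16.9% of 4890 genes were) and 0 were over 1.5-fold higher (13.7% of genes were), which is no more than the share of all genes. Hspa1b was that member, with 441 CPM in anti-CD40 and 919 CPM in isotype NK cells (2.08-fold lower, 1.86 to 2.33). Hspa1a had 301 CPM in anti-CD40 and 382 CPM in isotype NK cells (1.27-fold lower, 1.08 to 1.48), and Dnajb1 had 124 CPM in anti-CD40 and 185 CPM in isotype NK cells. The 5 inducible members summed to 962 CPM in anti-CD40 and 1571 CPM in isotype NK cells, a ratio of 0.613 (0.565 to 0.665), nearer to 1 than in phagocytes. Hsp90ab1 had 2565 CPM in anti-CD40 and 1720 CPM in isotype NK cells, a ratio of 1.49 (1.40 to 1.59), and Hspa8 had a ratio of 1.39 (1.31 to 1.48). With the trimmed mean scaling both passed 1.5-fold higher, which makes 1 member lower and 2 higher, where 9.57% and 21.5% of 5149 genes were, and the log2 ratio of the inducible sum was -0.49, against -0.70. Phagocyte markers in NK cells stood at 3.88% of their phagocyte level in the anti-CD40 and 1.98% in the isotype library, and the inducible members at 98.4% and 59.2% of theirs. NK cells were gated by not passing the phagocyte list, which keeps its markers low by selection. The part of phagocyte RNA in the NK cell levels was not tested.

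In neutrophils the inducible members were low in both libraries and the sums did not differ beyond counting error. They summed to 472 CPM (432 to 515) in anti-CD40 and 546 CPM (481 to 618) in isotype neutrophils, a ratio of 0.864 (0.742 to 1.01), and scaling by the trimmed mean of M values moved it above 1. Of 7 members measured, 1 was over 1.5-fold lower (27.1% of 2935 genes were) and 1 higher (19.0% of genes were), which is no more than the share of all genes. Hspa1b had 151 CPM in anti-CD40 and 246 CPM in isotype neutrophils (1.63-fold lower, 1.27 to 2.08), with a log2 ratio of -0.67 that became -0.29 under that scaling. Hspa1a had 244 CPM in anti-CD40 and 210 CPM in isotype neutrophils. Hspe1 had 46.9 CPM in anti-CD40 and 25.7 CPM in isotype neutrophils, from 50 and 12 UMIs, with an interval of the ratio that took in 1 (0.959 to 3.77). The immediate early genes were nevertheless lower in neutrophils, with 24760 CPM in anti-CD40 and 43883 CPM in isotype cells, and 14 of 22 over 1.5-fold lower.

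In the smaller classes, which had under 50 cells in a library, the sum of the inducible members was lower in T cells (1015 CPM in anti-CD40, 2239 CPM in isotype), B cells (697 and 2148 CPM), dendritic cells (963 and 2378 CPM) and endothelial cells (1006 and 1484 CPM). The intervals of these 4 ratios lay below 1. Not every gene followed the sum. In T cells Hsph1 had a ratio of 1.45, with an interval that took in 1 (0.863 to 2.59). Hsp90aa1, which is not in the sum, had 873 CPM in anti-CD40 and 618 CPM in isotype T cells. That ratio was 1.41 (1.18 to 1.70), on the other side of 1 from phagocytes. In endothelial cells the part from Hspa1a and Hspa1b rested on few cells. The highest 3 held 85 of 177 UMIs of the pair in the anti-CD40 and 104 of 143 in the isotype library. Without them the pair had 238 CPM in anti-CD40 and 215 CPM in isotype cells. Hspb1, also in that sum, had 504 CPM in anti-CD40 and 711 CPM in isotype endothelial cells, a ratio of 0.709 (0.575 to 0.876). Only 15 anti-CD40 B cells were gated. Fibroblasts differed, with 783 CPM in anti-CD40 and 637 CPM in isotype cells (ratio 1.23, 1.05 to 1.44). There Hspa1a and Hspa1b together had 425 CPM in anti-CD40 and 194 CPM in isotype fibroblasts, from 188 and 84 UMIs, a ratio of 2.19 (1.69 to 2.87), while Dnajb1 had 67.9 CPM in anti-CD40 and 113 CPM in isotype fibroblasts. The immediate early genes of fibroblasts had 9350 CPM in anti-CD40 and 8592 CPM in isotype cells. Of the 8 classes, Hspa1b was lower in 7 and higher in fibroblasts, and Hspa8 and Hsp90ab1 had ratios above 1 in all 8, with intervals that lay above 1 in 5 each.

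The share of Hspa1a in the UMIs of the pair, as counted, varied over classes. Its intervals do not cover how reads shared by both copies were counted, so the split is uncertain. It was 52.6% (52.0 to 53.2) in anti-CD40 and 50.3% (49.5 to 51.0) in isotype phagocytes, but 40.6% (37.6 to 43.7) in anti-CD40 and 29.4% (26.4 to 32.5) in isotype NK cells. It was 43.2% in anti-CD40 and 35.6% in isotype T cells, and 35.0% (33.5 to 36.6) in isotype B cells. In neutrophils it was 61.8% (56.9 to 66.4) in anti-CD40 and 46.0% (39.2 to 53.0) in isotype cells. In the isotype library lymphocytes thus had more UMIs counted to Hspa1b than to Hspa1a, and phagocytes about as many to each. This lean was not confined to lymphocytes. Isotype dendritic cells had a share of 40.1% (37.8 to 42.5) and isotype fibroblasts 36.9% (26.6 to 48.1). In anti-CD40 fibroblasts it was 33.5% (26.8 to 40.7). Isotype endothelial cells stood at 43.4%, with an interval of 35.1 to 51.9.

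Of 73 other chaperone and heat shock genes, 62 were measured in phagocytes, and 2 were over 1.5-fold lower and 3 higher, with a median log2 ratio of 0.05. Over all genes 10.1% were lower and 5.22% higher, so the share higher was near that of all genes. Under scaling by the trimmed mean of M values 2 were lower and 11 higher, where 5.50% and 11.1% of all genes were. The lower ones were J-domain partners of HSP70. Dnajb4 had 18.5 CPM in anti-CD40 and 54.8 CPM in isotype phagocytes (2.96-fold lower, 2.60 to 3.36), and Dnajb2 had 5.02 CPM in anti-CD40 and 19.3 CPM in isotype phagocytes (3.85-fold lower, 3.05 to 4.85). The higher ones were Dnajc2, a ribosome-bound J-domain protein (98.9 CPM in anti-CD40, 54.9 CPM in isotype), and the endoplasmic reticulum chaperones Calr (806 CPM in anti-CD40, 513 CPM in isotype) and Hsp90b1 (839 CPM in anti-CD40, 549 CPM in isotype). By group, the median log2 ratio was -0.38 over 10 J-domain genes, -0.08 over 19 co-chaperones, 0.26 over 8 subunits of the cytosolic chaperonin, 0.13 over 5 mitochondrial chaperones and 0.28 over 9 endoplasmic reticulum chaperones. Of these groups 0 genes were past 1.5-fold among the co-chaperones, the chaperonin and the mitochondrial chaperones. Of 8 genes of the HSP70 and HSP110 family 5 were measured, of 4 heat shock factor genes 3 and of 6 small heat shock protein genes 1, with 0 past 1.5-fold. Hsf1, the factor that drives the inducible members, had 23.5 CPM in anti-CD40 and 30.4 CPM in isotype phagocytes (1.30-fold lower). In NK cells 8 of 47 measured were over 1.5-fold higher and 1 lower, with a median of 0.26, where 13.7% of all genes were higher and 16.9% lower. With the trimmed mean scaling 19 of 48 were higher and 1 lower, where 21.5% and 9.57% of all genes were. In neutrophils 0 of 19 were higher and 5 lower, where 19.0% and 27.1% of all genes were. The share lower was near that of all genes. The lower one in NK cells was Dnajb4, and those in neutrophils were Hspa4l, Dnaja1, Dnajb6, St13 and Dnajb9, named here after their values were seen.

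The barcodes left out for mitochondrial UMIs held these genes too. They had 1302 CPM of the inducible members in the anti-CD40 and 2198 CPM in the isotype library. Among barcodes passing the phagocyte gate, the inducible members stood at 1502 CPM in anti-CD40 and 2785 CPM in isotype barcodes with 10 to under 20% mitochondrial UMIs, and at 1265 CPM and 1257 CPM from 20 to under 50%. The inducible sums were thus alike in this group of 623 anti-CD40 and 156 isotype barcodes, and apart at lower mitochondrial shares. Other values still differed there. Hspa8 had 1259 CPM in anti-CD40 and 698 CPM in isotype barcodes, Hspb1 12.3 and 29.6 CPM, and the immediate early genes 8759 and 13262.5 CPM. From 50% upward only 39 anti-CD40 and 6 isotype barcodes passed, with 362 and 377 CPM of the inducible members.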

How the data were processed

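The deposited matrices hold raw UMI counts, whole numbers with no normalization, for 32285 genes and 198 antibody tags; the tags were not used. The authors ran Cell Ranger 6.0.1, per the file headers. Cell Ranger 3, Seurat 3 and the builds mm10 and GRCh38 stand in the submitters' processing notes with no roles. The labels name 10x 5′ chemistry, but the tags carry names of a format made for 3′ capture, so the transcript end that was read was not settled, and how reads shared by Hspa1a and Hspa1b were counted is not given in the sources used here.

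Everything else was computed here with numpy 2.4.6, scipy 1.17.1 and pandas 2.3.3. Cells from 200 detected genes upward and below 10% mitochondrial UMIs were gated on 8 marker lists. A cell passed a list with at least 4 distinct markers (3 for dendritic cells) and a minimum of marker UMIs per 10000 set after the data were seen: 30 for phagocytes, endothelial cells and fibroblasts, 60 for neutrophils, 20 for B cells, 10 for NK cells and 4 for T and dendritic cells. Of gated phagocytes, 130 anti-CD40 and 38 isotype cells lay within 1.5-fold above the cut. Cells passing 2 or more lists were taken as doublets or carry-over and set aside, and no doublet caller was run. Marker genes of the classes are not reported as results. UMIs were summed per class and library and given as UMIs per 1000000 of the class (CPM) with exact Poisson intervals, and ratios with exact conditional binomial intervals. With 1 library a group there was no test of treatment. Shares of cells, distributions and correlations used cells thinned to 2000 UMIs, with exact binomial intervals, and shallower cells were left out. The ratio, scaling and thinning steps were tested on simulated data. The genes named are the 9 members, the other chaperone genes past 1.5-fold in phagocytes (at most 6 lower and 4 higher), 8 genes most like the inducible members in each library (Pearson correlation, genes in at least 5% of cells; 1 of them is not reported here) and the 4 immediate early genes with the most UMIs; Hsf1, Malat1, Xist and the Y-linked genes were added after values were seen. The members and lists were chosen with earlier results of these data known. Alternatives varied scaling, prior, cell filters, gates, thinning and cell weighting.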

Additional observations from a re-analysis of the deposited data

Results flagged for a closer look

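In gated fibroblasts Hspa1a and Hspa1b had ratios of anti-CD40 over isotype of 1.99 (1.28 to 3.17) and 2.31 (1.66 to 3.25), and 2.19 when summed, against 0.369, 0.337 and 0.353 in gated phagocytes. They stand out because the libraries differed in opposite directions in the 2 classes; the difference between the classes was not tested. The fibroblasts numbered 52 and 34 cells. The highest 3 cells held 65 of 188 UMIs of the pair in the anti-CD40 and 37 of 84 in the isotype library, and without them the levels were 296 CPM and 123 CPM. Phagocyte markers in fibroblasts stood at 593 CPM in the anti-CD40 and 219 CPM in the isotype library, 3.39% and 1.36% of the phagocyte level; their part in the result was not tested.

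Hsph1, Hsp90ab1 and the 9 members summed stand out because phagocytes with Y-linked UMIs only had ratios above 1 (1.34, 1.51 and 1.18) and those with Xist only had ratios below 1 (0.363, 0.946 and 0.644). The difference between these groups of cells was not tested, since both come from the same 2 libraries.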

How the results depend on the processing

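No paired analysis was possible because each group is 1 library and the result comes from no test. In gated phagocytes Hspa1a, Hspa1b and Hspb1 were over 1.5-fold lower under each of 12 alternatives. The summed inducible members (log2 ratio -1.43) stood at -1.12 with the trimmed mean of M values, -1.10 with the median of ratios, -1.58 with at least 500 genes and below 5% mitochondrial UMIs, -1.34 with no mitochondrial filter, -1.39 with a cleaner gate (under 2 markers of any other list), -1.23 as a mean over cells, -1.35 without the 5% of cells highest in members, -1.97 in cells with Xist only and -1.09 in cells with Y-linked UMIs only. The median over the 9 members (-0.54) was -0.24 and -0.22 under the 2 scalings, -0.47 under the stricter cell filter, -0.59 after thinning, -0.93 in Xist cells and -0.12 in Y-linked cells. Members over 1.5-fold lower numbered 5 after thinning and 6 in Xist cells, against 3, and members higher numbered 2 under each scaling and 3 in Y-linked cells, against 0. Other chaperone genes lower, 2 as reported, numbered 6 with a prior of 1 CPM, 5 with the cleaner gate and 8 in Xist cells. Those higher, 3 as reported, numbered 11 and 12 under the scalings by trimmed mean and by median of ratios, 6 with the prior of 1 CPM and after thinning, and 5 with the stricter cell filter, the stricter and the cleaner gate, without the top cells and in Y-linked cells. Of all genes 5.50% were lower and 11.1% higher under the trimmed mean, 11.6% and 7.28% in Xist cells, and 14.1% and 7.40% in Y-linked cells. For the other alternatives this share was not computed. Whether their counts of members and other chaperone genes changed more than those of all genes therefore cannot be told.

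In neutrophils Hspa1b was at 1.54 (log2) in Xist cells, against -0.67, and Hspe1 was at -1.02 with the cleaner gate and -0.045 without the top cells, against 0.67. Of 33 values per gene or sum and class, 16 kept their sign under every alternative. The scalings measured log2 ratios against a library factor of -0.31 (trimmed mean) and -0.33 (median of ratios) in phagocytes, -0.40 and -0.37 in neutrophils and -0.22 and -0.22 in NK cells, so they raised every ratio of anti-CD40 over isotype by that size. Causes were not tested, except that the scalings change every ratio by construction and the splits leave fewer cells. Single neutrophils, with medians of 2940 and 3046 UMIs, and classes under 50 cells limit what depth can show.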
